A study of Mus musculus with 4 samples.

Results

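The histone-high cells described here were cultured adipose cells that carried at least 3 UMIs of Hist1h1b, the gene of a linker histone whose mRNA is made mainly while DNA is copied. A UMI is a tag that marks 1 captured mRNA molecule. The cells were chosen by this readout among all barcodes of 4 single-cell libraries with 5000 to 75000 UMIs, 200 to 7500 genes and under 10% of UMIs from mitochondrial genes. They numbered 6025 of 28262 such barcodes, a share of 21.3% (95% exact binomial interval 20.8% to 21.8%). The markers given with them were Hist1h1b, Hist1h2ap, Hist1h2ae, Hist1h1a and Clspn. Each library held 1 kind of primary cultured cells from adipose tissue of chow-fed male C57BL/6J mice. Cultured DFAT cells, iWAT (iWAT_DFAT) and cultured DFAT cells, eWAT (eWAT_DFAT) were dedifferentiated fat cells, grown out of mature adipocytes that had floated against the top surface of an inverted flask (ceiling culture). Cultured SVF cells, iWAT (iWAT_SVF) and cultured SVF cells, eWAT (eWAT_SVF) came from the stromal vascular fraction, the non-adipocyte cells that pellet when digested fat is spun. iWAT is a subcutaneous and eWAT an epididymal (visceral) depot. All cells had been grown attached in culture before capture, so neither source was read here as it is in the animal.

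Cells that copy their DNA must also supply new histones to wrap it. The mRNAs of the replication-dependent histones, clustered in the genome, are made in S phase and destroyed when replication ends. Unlike other mRNAs they normally end in a short stem-loop bound by SLBP and carry no poly(A) tail. The libraries were primed on poly(A), so a replication-dependent histone was counted only from molecules that carried, or held within them, a run of A. Replication-independent histones such as H2afz and H3f3b are made through the cycle, end in poly(A) and replace histones outside S phase.

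The 4 libraries held 211396227, 219136195, 242282812 and 241846688 UMIs over all droplets, in the order iWAT_DFAT, eWAT_DFAT, iWAT_SVF, eWAT_SVF, which is kept for every series of 4 values below. Each condition had 1 library, so no condition has a replicate error, and no difference between conditions or sources was tested. Intervals cover counting error only. The comparison cells were the barcodes of the same library within the same limits that had no UMI of Hist1h1b and none of Top2a, and numbered 3706, 2629, 3529 and 3347. A further comparison used cells with at least 3 Top2a UMIs and no Hist1h1b UMI, of which there were 455, 259, 517 and 201. Top2a encodes topoisomerase II alpha, which untangles chromosomes and is most abundant late in the cycle. Pairs of libraries shared 13 to 20 barcodes, and 10 histone-high cells carried a barcode that also marked a histone-high cell of another library. The file header of iWAT_SVF named another Cell Ranger version than those of the other libraries, and whether it was counted with the same intron setting is not known, which bears on every level set beside those of the other libraries.

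Histone-high cells were found in every library. They were 1445 of 7629 barcodes (18.9%, 18.1% to 19.8%) in iWAT_DFAT, 1801 of 6464 (27.9%, 26.8% to 29.0%) in eWAT_DFAT, 1385 of 7424 (18.7%, 17.8% to 19.6%) in iWAT_SVF and 1394 of 6745 (20.7%, 19.7% to 21.7%) in eWAT_SVF. The share was highest in eWAT_DFAT. Cells of 1 library are not replicates, so these intervals do not say whether the conditions differ. Histone-high cells were deeper than comparison cells of the same library, with medians of 29692, 33250, 31101 and 33192 UMIs against 18991, 22463, 21442 and 25213. After every barcode was thinned to 5000 UMIs, the share with at least 1 Hist1h1b UMI was 19.7%, 25.4%, 17.5% and 19.7%, with the same library highest. At that depth the histone-high cells still had slightly more genes detected than comparison cells, at medians of 2241, 2159, 2145 and 2127.5 against 2153, 2067, 2042 and 2023.

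**Figure D1:**
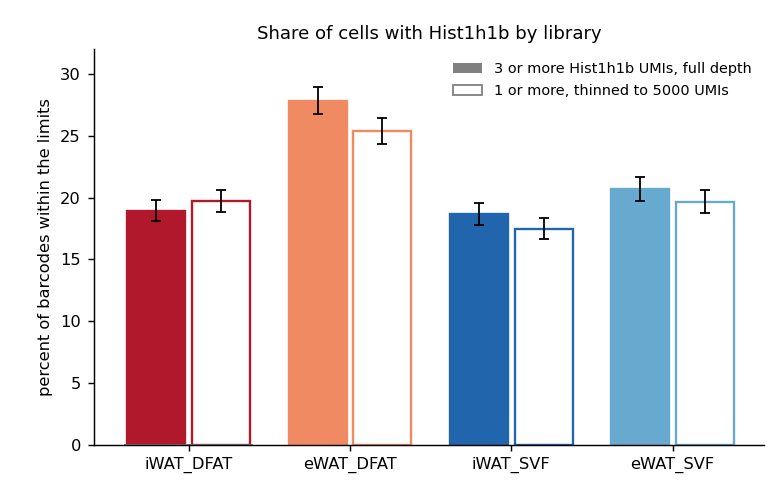
Share of barcodes within the limits, in percent, that held 3 or more Hist1h1b UMIs at full depth (filled bars) or 1 or more after thinning each barcode to 5000 UMIs (open bars), by library, with 95% exact binomial intervals for counting error. The eWAT_DFAT library has the tallest bar in both measures, at 27.9% and 25.4%.

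The limit of 3 UMIs lay within a rising gradient of Hist1h2ap, Hist1h2ae and Clspn in every library. Hist1h1a was less even. It stood at 1.54, 2.00, 2.08 and 2.87 CPM (defined below) in cells with 2 Hist1h1b UMIs and at 5.01, 2.41, 5.96 and 2.30 CPM with 3. It thus rose most at the limit in the iWAT libraries, and in eWAT_SVF it stood slightly lower with 3 than with 2. These low levels were given no counting interval, so a fall in eWAT_SVF is not shown. Cells just inside the limit, with exactly 3 Hist1h1b UMIs, numbered 122, 217, 138 and 204, and cells just outside, with exactly 2, numbered 249, 325, 225 and 312. The median histone-high cell had 16, 12, 13 and 11 Hist1h1b UMIs. In iWAT_DFAT, Hist1h2ap stood at 4.29 CPM (UMIs of the gene in the summed cells, scaled to a total of 1e+06) with no Hist1h1b UMI, 24.3 with 2, 48.9 with 3, 203 with 10 to 19 and 269 with 20 or more. Clspn, an adaptor of the replication checkpoint kinase, stood at 12.4, 57.9, 66.0, 126 and 129 CPM over the same steps. Top2a stood at 68.0, 260.1, 218, 359 and 385 CPM, so it was not ordered between 2 and 3 UMIs. In eWAT_SVF cells with exactly 3 Hist1h1b UMIs, Hist1h2ap stood at 86.3 CPM, Clspn at 31.8 CPM and Top2a at 176 CPM. With exactly 2 they stood at 65.0, 25.2 and 140 CPM. The RNA free of cells was richest in Hist1h1b in that library. Droplets with 1 to 100 UMIs, read as free RNA, held Hist1h1b at 91.5, 88.1, 61.8 and 153 CPM, against 597, 497, 483 and 549.6 CPM in the histone-high cells. How many cells near the limit took their Hist1h1b UMIs from free RNA was not tested.

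The other histone markers were far above the comparison cells in all 4 libraries. All ratios that follow are log2 ratios of CPM, histone-high cells over the named other cells of the same library, from summed UMIs with 0.5 UMI added to each sum. Because the same droplets were used to choose the cells, every ratio is a description and none carries a test. Hist1h2ap, an H2A gene, stood at 201, 208, 1081 and 502 CPM in histone-high cells and at 2.96, 6.02, 17.2 and 11.8 CPM in comparison cells. Its log2 ratios were 6.08, 5.11, 5.98 and 5.41. The iWAT_SVF library, the one whose header named another counting version, was the highest in both kinds of cells and in free RNA, which held 32.4, 54.1, 231 and 149 CPM. Whether the counting version has a part in that level was not tested.

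Hist1h2ae, also an H2A gene, had 98.5, 120.4, 200.005 and 105 CPM in histone-high cells and 4.73, 5.04, 5.92 and 4.92 CPM in comparison cells, for ratios of 4.38, 4.58, 5.08 and 4.42. The linker histone gene Hist1h1a had 28.7, 26.0, 26.1 and 25.3 CPM against 0.362, 0.620, 0.321 and 0.376 CPM, for ratios of 6.28, 5.37, 6.31 and 6.05. For all 3 histone markers the lowest library of histone-high cells lay above the highest library of comparison cells. Clspn had 116, 81.1, 93.6 and 71.8 CPM against 5.50, 5.91, 4.25 and 2.93 CPM, for ratios of 4.39, 3.78, 4.46 and 4.61. At full depth a Hist1h2ap UMI was found in 89.6%, 86.7%, 98.5% and 88.9% of histone-high cells and in 5.53%, 11.1%, 24.3% and 20.3% of comparison cells. Thinned to 5000 UMIs these shares were 59.6%, 55.0%, 89.2% and 67.9% against 1.48%, 3.04%, 7.62% and 5.20%.

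A gene was called higher or lower where it was at least 2-fold so in all 4 libraries. Of 10056 genes with a mean of at least 5 CPM, apart from Hist1h1b and Top2a, 394 were higher (3.92%) and 10 lower (0.0994%) in histone-high cells, and the median gene had a log2 ratio of 0.01 to 0.04. Of the replication-dependent histone genes, 66 were matched by name (Hist1h1b aside), 24 were abundant enough to compare, 19 of these were higher and 1 was lower. The others lay under that mean. A gene could pass it through the histone-high cells alone, so the count of 19 describes the abundant genes and not the whole family. Their list median was 3.32, against 0.01 over all genes compared. Summed, the 66 genes gave 1217, 1202, 2360 and 1486 CPM in histone-high cells and 219, 296, 376 and 453 CPM in comparison cells. That is 5.56, 4.06, 6.28 and 3.28 times as much, the least in the eWAT_SVF library, where comparison cells and free RNA (987 CPM) held most. Of the 453 CPM in those comparison cells, the H2B gene Hist1h2bc alone held 246 CPM. In sums of counts, a greater share of cells with histone mRNA and more of it per cell cannot be told apart.

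By family, the H2A genes stood furthest apart, with 6 of 8 compared higher and a list median of 4.65. Hist1h2ab, Hist1h2an, Hist1h2ai and Hist2h2ac were higher beside Hist1h2ap and Hist1h2ae. Hist1h2ab had 32.4, 29.9, 75.3 and 38.6 CPM against 0.590, 0.635, 1.236 and 1.28 CPM. Near-identical H2A copies share reads, so how a count was divided among them is uncertain. For H3 the counts were 4 of 4 with a median of 3.48, all 4 of them under 5 CPM in comparison cells, so that they were compared only through their level in histone-high cells. Hist2h3c1 and Hist2h3c2, which lay under the limit and were not compared, stood below comparison cells in all 4 libraries, at -2.24 to -1.52 and -1.38 to -0.85. Among the compared H3 genes, Hist1h3c had 29.0, 39.6, 46.9 and 14.4 CPM against 2.78, 1.99, 2.09 and 0.922 CPM. For H4 they were 3 of 4 with a median of 2.49, and Hist1h4d had 119.6, 92.0, 123 and 97.7 CPM against 11.4, 10.7, 9.65 and 10.98 CPM. Of the linker histones 3 of 4 were higher with a median of 3.27, led by Hist1h1a, Hist1h1d and Hist1h1e. Hist1h1e had 223, 193, 188 and 223 CPM against 26.8, 28.3, 18.0 and 40.3 CPM. For H2B, Hist2h2bb, Hist1h2bj and Hist1h2be were higher and Hist1h2bc was lower. Summed over the family, H2B genes in histone-high cells stood at 1.303, 0.914, 0.824 and 0.632 times their level in comparison cells, so below it in 3 libraries. Most of that sum in comparison cells was 1 gene, as Hist1h2bc held 75.5, 131, 191 and 246 of 87.1, 142, 201 and 255 CPM. In histone-high cells it held 35.5, 56.0, 67.9 and 104 of 114, 130, 165 and 161 CPM, so the summed ratio does not describe the other H2B genes.

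**Figure D2:**
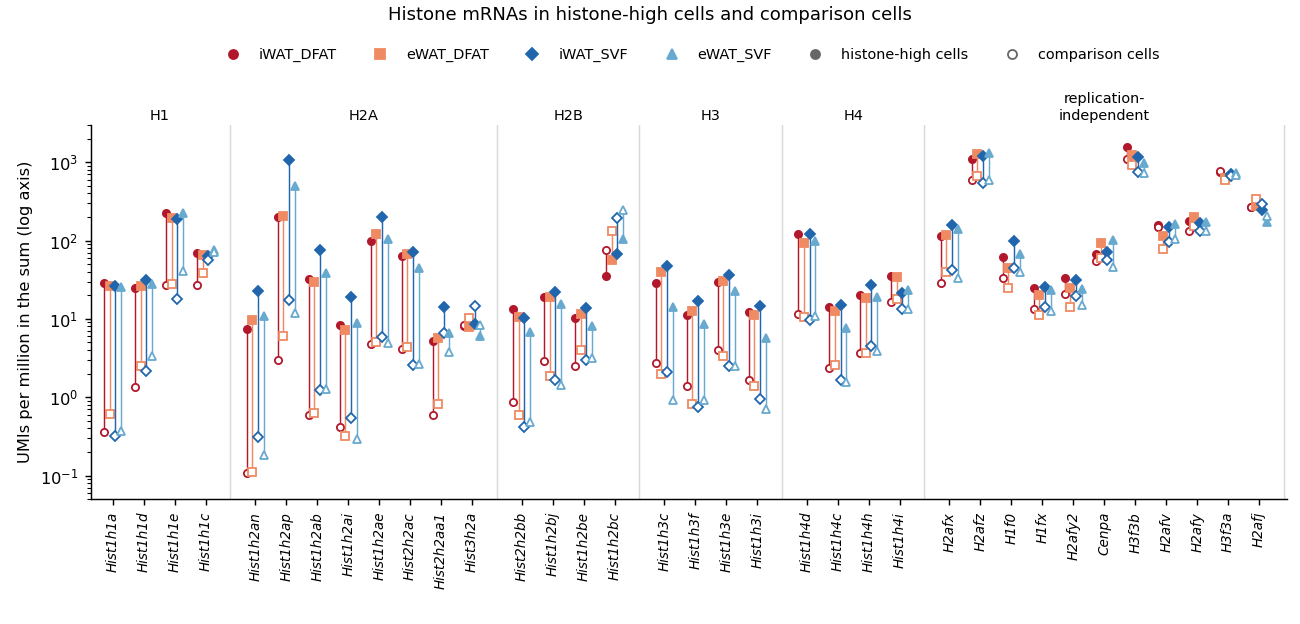
CPM (log axis) of the compared histone genes in summed histone-high cells (filled) and comparison cells (open) of each library, joined by a line, by family. All filled points of Hist1h2ap lie above its open points, at 201 to 1081 against 2.96 to 17.2 CPM, and Hist1h2bc is turned the other way.

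Hist1h2bc was, of the replication-dependent genes compared, the one that was lower by 2-fold or more in all 4 libraries. It stood at 35.5, 56.0, 67.9 and 104 CPM in histone-high cells and 75.5, 131, 191 and 246 CPM in comparison cells, so the comparison cells were higher in every library. Its log2 ratios were -1.09, -1.23, -1.49 and -1.24, and the counting interval in iWAT_SVF ran from -1.55 to -1.44. Against cells with Top2a and no Hist1h1b it differed little, at -0.06, -0.10, -0.09 and -0.19. Hist3h2a was also not higher in any library, at -0.02, -0.39, -0.73 and -0.44. The linker histone gene Hist1h1c stood at 69.3, 65.2, 63.2 and 74.9 CPM against 26.9, 39.1, 56.1 and 72.2 CPM. Its ratios were 1.37 (1.28 to 1.45), 0.74 (0.66 to 0.81), 0.17 (0.10 to 0.24) and 0.05 (-0.01 to 0.11). The DFAT libraries thus had the larger ratios, while the level in histone-high cells was close across libraries and the level in comparison cells was not. Against the Top2a cells its ratios were 1.65, 1.07, 1.25 and 0.89. Hist1h4i stood at 1.10, 0.91, 0.68 and 0.82.

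These genes differ in how their annotated transcripts end. The stem-loop of the histone mRNAs, a run of 16 bases with a stem of 6 pairs and a loop of 4, was searched in the GENCODE transcripts of build GRCm38. It was found in 59 of 55450 genes (0.106%), among them 46 of 67 replication-dependent genes with a model and 1 replication-independent gene, H2afx. The form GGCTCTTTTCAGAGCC was in 26 genes of all families but H4, and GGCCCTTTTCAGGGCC was in 7 genes, all H4. The stretches around the element are shown for the genes the text turns on, 5′ to 3′ in the sense of the mRNA, with the stem-loop in capitals. All lie within an exon of the annotated transcript.
Hist1h2ap (chr13:21833026-21833055, minus strand): aaaaaaaaaaaGGCTCTTTTCAGAGCCatc
Hist1h2ae (chr13:23570660-23570689, minus strand): aacaaaGGCTCTTTTCAGAGCCattcactt
Hist1h2ab (chr13:23751566-23751595, plus strand): aacaaaGGCTCTTTTCAGAGCCacccacat
Hist1h3c (chr13:23745039-23745068, minus strand): aaaaaaGGCTCTTTTAAGAGCCacctaaga
Hist1h4d (chr13:23581944-23581973, plus strand): accaaaGGCCCTTTTCAGGGCCactacctt
Hist1h1e (chr13:23621774-23621803, minus strand): cccaaaGGCTCTTTTCAGAGCCacccacaa
Hist1h1c (chr13:23739506-23739535, plus strand): ccaaaaGGCTCTTTTCAGAGCCaccactcc
Hist3h2a (chr11:58955166-58955195, plus strand): accaaaGGCTCTTTTCAGAGCCacccacaa
H2afx (chr9:44335234-44335263, plus strand): cacaaaGGCCCTTTTAAGGGCCaccacctc
Hist1h2ap is shown for its A-rich stretch. The longest unbroken run of A within the 20 bases before the stem-loop, a window that reaches further upstream than the letters shown, was 12 bases in Hist1h2ap, 8 in Hist1h2ae, 7 in Hist1h3c and 3 in Hist1h1e. What part of its counts began at that run was not tested.

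The annotated transcript of Hist1h2ap stops 3 bases after its stem-loop and that of Hist1h2ab 11 bases after. Those of Hist1h1c, Hist3h2a and H2afx run 840, 1643 and 822 bases further. At these longer ends lies a poly(A) signal (AATAAA or ATTAAA within 50 bases of the end), in capitals below.
Hist1h1c end (chr13:23740338-23740367, plus strand): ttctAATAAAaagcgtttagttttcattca
Hist3h2a end (chr11:58956797-58956826, plus strand): AATAAAataagagtacgtgtataacataag
H2afx end (chr9:44336043-44336072, plus strand): ATTAAAggatcgtttggttttgttttttta
Sorted by annotated end, a grouping chosen after the values were seen, 7 of 8 compared genes whose model stopped within 200 bases of the stem-loop were higher, with a median log2 ratio of 4.11. Of the 4 whose model stopped at the stop codon all were higher, with a median of 4.41. Of the 10 that ran on further past the stem-loop 7 were higher, with a median of 2.75. The 6 compared replication-dependent genes with a poly(A) signal at the end had 3 higher and a median of 1.32. The 18 without one had 16 higher, 1 lower and a median of 3.64. Only genes that reached the mean CPM limit were compared, 6 of 16 with a signal and 18 of 51 without one. A gene could reach it through the histone-high cells alone, which favours a call of higher. Under it, Hist2h3c1 with a signal and Hist2h3c2 without one stood below comparison cells in all 4 libraries. The counts and medians by end thus describe the abundant genes and do not say whether the classes differ. The 2 compared genes with no stem-loop in the annotated transcript and another end were Hist1h2bc, the lower one, and Hist1h1a, with a mean ratio of 6.01. An annotated end is not a measured one, and which transcripts were captured was not tested.

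**Figure D3:**
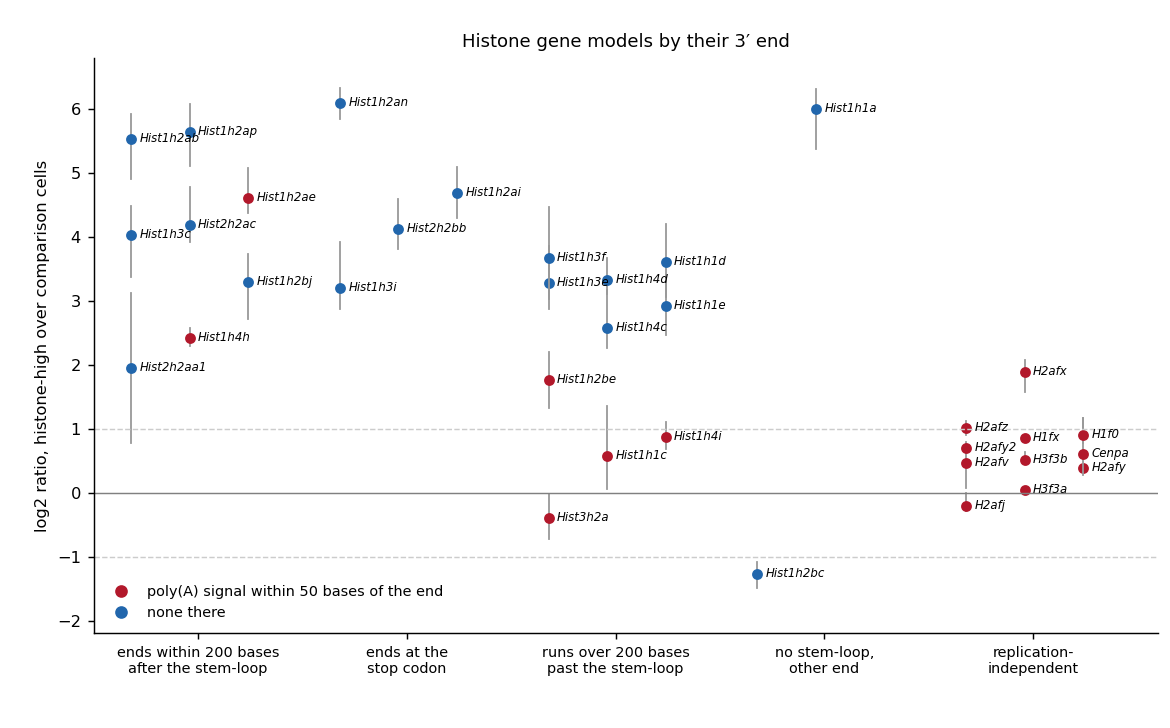
Log2 ratio of histone-high over comparison cells for each compared histone gene (point, mean of the 4 libraries; line, lowest to highest library), sorted by the end of its annotated transcript and coloured by a poly(A) signal within 50 bases of that end. The 3 replication-dependent genes nearest to or below 0 with a signal are Hist3h2a, Hist1h1c and Hist1h4i, and Hist1h2bc without one lies at -1.26.

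Replication-independent histones were closer to the comparison cells. Of 11 compared, 1 was higher and none lower, with a median of 0.61. The one was H2afx, whose product marks broken DNA and whose annotated mRNA holds the stem-loop, at 113, 118, 159 and 141 CPM against 28.8, 39.6, 42.4 and 33.3 CPM, for ratios of 1.97, 1.58, 1.91 and 2.08. H2afz, a gene of the variant H2A.Z, had 1110.0, 1255, 1190.0 and 1309 CPM against 587, 672, 548 and 599.9 CPM, for ratios of 0.92, 0.90, 1.12 and 1.13, close to 2-fold in all libraries. H3f3a, a gene of H3.3, stood at -0.02, 0.08, 0.05 and 0.06. Against cells with Top2a and no Hist1h1b the median of the list was 0.02, while that of the replication-dependent genes was 2.77. Those cells were chosen to lack Hist1h1b, so the sign of the second median was in part set by that choice.

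Genes that make, carry and process histone mRNA and protein were higher in part, 7 of 15 with a median of 0.92. Slbp, which binds the stem-loop, had 87.5, 70.7, 80.5 and 67.2 CPM against 26.4, 31.5, 25.4 and 24.1 CPM, for ratios of 1.73, 1.17, 1.66 and 1.48. Chaf1a and Chaf1b, subunits of the chromatin assembly factor that loads H3 and H4 on new DNA, had ratios of 2.29 to 3.08 and 2.79 to 3.49. Nasp and Asf1b, histone chaperones, and Eri1, an exonuclease of the histone mRNA end, were higher as well. Npat, the coactivator of histone genes at the histone locus body, stood at 0.88, 0.88, 1.03 and 0.90, just short of 2-fold in 3 libraries. Lsm10, Sympk and Cpsf3, parts of the machinery that cuts the histone mRNA end, stood at -0.31 to -0.03, 0.01 to 0.11 and -0.11 to 0.13. The chaperones Asf1a and Hira, also not called, stood at 0.51 to 0.68 and 0.33 to 0.46.

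Genes of the passage into S phase were higher in 11 of 13 cases, with a median of 1.98. Of those, Fbxo5, Ccne2, E2f7, E2f8, Cdc7 and Cdk2 lay under 5 CPM in comparison cells of every library. They were compared only through their level in histone-high cells, which favours a call of higher. Genes of the other lists could be compared in the same way, as Cdc6, Rad51ap1 and Esco2 were. The count for each list thus describes its abundant genes. Genes at 20 CPM or more in histone-high cells of all libraries were ranked by their smallest ratio, whatever their level in comparison cells. Fbxo5, the inhibitor of the anaphase-promoting complex that allows cyclin A to build up, ranked first. It had 51.6, 61.1, 79.1 and 58.0 CPM against 0.925, 1.08, 1.41 and 0.535 CPM, for ratios of 5.79, 5.81, 5.81 and 6.75. Ccne2, a cyclin E gene, had 36.4, 28.1, 35.2 and 22.2 CPM against 2.44, 3.75, 3.41 and 1.34 CPM, for ratios of 3.89, 2.90, 3.36 and 4.04. Its partner kinase Cdk2 stood at 1.86, 1.63, 1.86 and 1.74. E2f7 and E2f8, repressors of the E2F genes, had ratios of 3.25 to 3.81 and 3.69 to 4.92. Cdk4, a kinase of G1, and E2f3 stayed under 2-fold, at 0.29 to 0.49 and 0.36 to 0.52.

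Origin licensing, the loading of the MCM helicase, had 12 of 16 genes higher and a median of 2.14. Cdc6, a loader, had 21.2, 19.4, 16.8 and 16.5 CPM against 1.89, 1.89, 1.54 and 1.13 CPM, for ratios of 3.48, 3.35, 3.44 and 3.86. All of Mcm2 to Mcm7 were higher, with Mcm5 at 3.03, 2.06, 2.80 and 3.02 and Mcm3 at 2.98, 1.87, 2.46 and 3.11. Among these MCM genes and Mcm10 the smallest ratio in each case was that of eWAT_DFAT. Gmnn, which blocks a second round of licensing, stood at 3.51, 2.87, 3.22 and 3.27. Orc2 to Orc5, subunits of the origin recognition complex, were not called, and Orc3 and Orc4 lay within 0.05 to 0.22 and -0.07 to 0.15. Orc1 and Orc6 were higher, at 1.74 to 2.52 and 1.31 to 1.71.

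At the replication fork 28 of 31 genes were higher, with a median of 2.14. Pcna, the sliding clamp, had 191, 140.0, 175 and 129 CPM against 41.0, 42.3, 39.2 and 27.7 CPM, for ratios of 2.22, 1.73, 2.16 and 2.22. Of the polymerase genes, Pola1 lay at 2.17 to 3.03, Pole at 2.32 to 3.10 and Pold1 at 2.02 to 2.74, with eWAT_DFAT lowest for each. Cdc45, of the active helicase, stood at 3.33, 2.80, 3.53 and 3.69, and Fen1 and Lig1, which join the lagging strand, at 2.56 to 3.31 and 2.24 to 2.86. Rfc1, Rpa3 and Rnaseh2a were compared and not called, with Rfc1 at 1.19, 0.92, 1.21 and 1.08.

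Of genes for nucleotide synthesis 8 of 15 were higher, with a median of 1.38. Rrm2, the subunit that limits ribonucleotide reductase, had 218, 177, 164 and 97.7 CPM against 42.1, 38.9, 36.0 and 13.1 CPM, for ratios of 2.37, 2.18, 2.19 and 2.89. Tk1, a thymidine kinase gene, had ratios of 2.24 to 3.24. Of purine and pyrimidine ring synthesis, Umps was higher at 1.14 to 1.58, while Cad, Paics, Gart and Impdh2 were not called, at 0.52 to 0.63, 0.50 to 0.63, 0.52 to 0.92 and 0.28 to 0.51. Dctd and Dtymk, which make deoxynucleotides, were not called either, at 0.44 to 0.96 and 0.66 to 0.99, so both ends of the pathway held genes past 2-fold and genes short of it.

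Fork protection and repair had 20 of 22 genes higher and a median of 3.00, the highest median of the lists of replication genes. Rad51ap1, a gene of repair by strand exchange, had 41.5, 34.8, 44.0 and 36.7 CPM against 1.38, 1.72, 1.41 and 0.740 CPM, for ratios of 4.90, 4.34, 4.96 and 5.62. Exo1, an exonuclease, and Brca1 had ratios of 3.90 to 5.34 and 3.32 to 4.82. Atr and Atrip, the kinase of stalled forks and its partner, were not called, at 0.77 to 1.18 and 0.42 to 0.56. Copying of chromatin had 11 of 18 higher and a median of 1.97. Esco2, which locks sister chromatids together during replication, had 41.8, 29.4, 38.9 and 31.0 CPM against 0.577, 0.683, 0.358 and 0.216 CPM, for ratios of 6.16, 5.41, 6.74 and 7.13. Uhrf1 and Dnmt1, which copy DNA methylation, stood at 2.62 to 3.45 and 1.94 to 2.40. The cohesin subunits Smc1a and Smc3 were near 2-fold and not called, at 0.74 to 0.99 and 0.87 to 1.04.

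**Figure D4:**
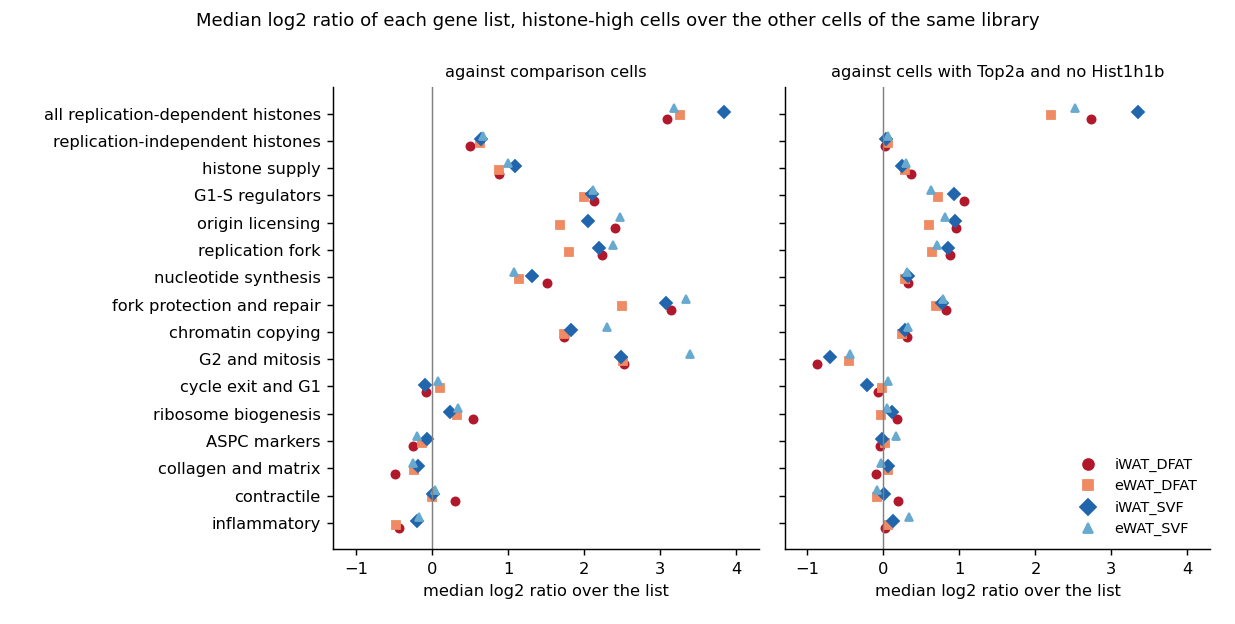
Median log2 ratio over each gene list in each library, histone-high cells over comparison cells (left) and over cells with Top2a and no Hist1h1b (right). Replication-dependent histones lie at 3.09 to 3.84 on the left and 2.20 to 3.36 on the right, while G2 and mitosis lies at 2.48 to 3.39 on the left and at -0.88 to -0.45 on the right.

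Genes of G2 and mitosis were also above the comparison cells, which were chosen to lack Top2a, with 30 of 33 higher and a median of 2.58. On this contrast alone the label S phase was thus not told apart from later phases, and DNA content was not measured. Aurkb and Kif11, a kinase and a motor of the spindle, were among the 10 highest genes by rank, at 4.36 to 5.02 and 4.17 to 4.58. Against cells with Top2a and no Hist1h1b the list lay lower, with a median of -0.66, 4 of 33 genes lower and none higher. The 4 were Ccnb1, Cdc20, Kif20a and Ube2c. In that comparison 39 of 9982 genes were higher (0.391%) and 7 lower (0.0701%). The Top2a cells were chosen by a late gene and for lack of Hist1h1b, so the direction was in part set by that choice. They also held other cells to an unknown degree. The 7 immune markers summed to 21.2, 48.8, 14.6 and 99.6 CPM in them and to 19.4, 14.7, 31.1 and 62.1 CPM in histone-high cells. Ccnb1, the cyclin of mitotic entry, stood at 51.4, 65.3, 70.5 and 71.2 CPM in histone-high cells, 13.1, 15.5, 16.9 and 10.9 CPM in comparison cells and 192, 136, 199.99 and 156 CPM in the Top2a cells. Cdc20, which starts anaphase, stood at 49.97, 63.9, 71.3 and 79.7 CPM in histone-high cells and 199, 162, 247 and 192 CPM in the Top2a cells. In comparison cells Cdc20 stood at 21.0, 27.4, 30.3 and 18.4 CPM, so the histone-high cells were between the others for both genes. Cenpa, the centromeric H3, and Cdkn3 and Arl6ip1, which belonged to no list and were named after their values were seen, were the other genes lower.

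Of the 39 genes higher than in the Top2a cells, 19 were replication-dependent histones out of 23 compared. Hist1h1a was furthest apart, at 5.24, 3.05, 4.86 and 6.98. These ratios rest on 10, 26, 15 and 1 Hist1h1a UMIs in the Top2a cells, so they are imprecise and the last lies at the floor. Of the rest, 15 belonged to lists of entry into S phase, the fork, repair or histone supply. They were Ccne1, Ccne2, E2f7 and E2f8 (4 of 13 genes of S phase entry), Cdc45, Dna2, Dscc1, Pola1 and Wdhd1 (5 of 33 fork genes), repair genes such as Brca1, Brip1, Rad51ap1 and Ung (5 of 23 passed) and Chaf1b. Wdr76, Mybl2, Atad5, Slfn9 and Cxcl10 belonged to none and were named after their values were seen. Ccne2 stood at 5.58, 7.01, 7.73 and 7.61 CPM in the Top2a cells, for ratios of 2.69, 1.99, 2.18 and 1.53. Ung, which removes uracil from DNA, had 9.83, 9.75, 10.4 and 10.9 CPM against 1.23, 2.85, 3.83 and 1.87 CPM. No licensing gene was 2-fold higher in all libraries, with Cdc6 at 1.92, 1.29, 1.53 and 0.98, short of 2-fold in eWAT_SVF alone. The list medians for licensing and fork genes were 0.86 and 0.77, smaller than against comparison cells.

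Within the histone-high cells, levels differed along Top2a, which had not been used to choose them. Cells with no Top2a UMI were 5.05%, 8.22%, 2.38% and 13.6% of them, and cells with 10 or more were 49.0%, 40.6%, 57.8% and 42.0%. Cdc6 at 0, 1 to 2, 3 to 9 and 10 or more Top2a UMIs stood at 16.5, 38.0, 32.2 and 11.9 CPM in iWAT_DFAT and 19.7, 37.2, 25.8 and 9.80 in eWAT_DFAT. It stood at 19.4, 36.7, 27.7 and 9.66 CPM in iWAT_SVF and 10.2, 23.9, 27.1 and 9.06 in eWAT_SVF. Its highest level was thus in the inner steps in every library, and its level at 10 or more Top2a UMIs was the lowest of the 4 steps in every library. In eWAT_SVF that lowest level was close to the level with no Top2a UMI, and the steps were given no counting interval. Ccne2 was also highest in an inner step in every library, for example 15.3, 44.7, 48.8 and 28.6 CPM in iWAT_DFAT and 7.80, 24.8, 35.4 and 16.3 CPM in eWAT_SVF. Slbp was highest at 3 to 9 Top2a UMIs in iWAT_DFAT, iWAT_SVF and eWAT_SVF and at 1 to 2 in eWAT_DFAT.

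The histones themselves went on to the top step. Summed without Hist1h1b, replication-dependent histones had 399, 718, 1218 and 1355 CPM in iWAT_DFAT, 389, 657, 1292 and 1385 in eWAT_DFAT, 807, 1089, 2199.6 and 2588 in iWAT_SVF and 517, 838, 1605 and 1816 in eWAT_SVF. G2 and mitosis genes summed to 721, 1140.0, 1718 and 3466 CPM in iWAT_DFAT and to 437, 1171, 1894 and 4428 in eWAT_SVF, also highest at the top. Ccna2, the cyclin of S phase and G2, went from 20.4 to 84.0 CPM in iWAT_DFAT. Cells of the top step held 73.0, 99.4, 90.1 and 119 CPM of Ccnb1, against 192, 136, 199.99 and 156 CPM in the Top2a cells, so less in every library. Median UMIs also differed along the steps, from 23333 to 32810 in iWAT_DFAT and from 21291 to 33652.5 in iWAT_SVF. The readout that chose the cells ran along the steps as well. Median Hist1h1b UMIs were 4, 6, 16 and 20 in iWAT_DFAT, 4, 6, 16 and 18 in eWAT_DFAT, 4, 4, 11 and 17 in iWAT_SVF and 4, 5, 15 and 21 in eWAT_SVF. The lower steps thus lay nearer the limit of 3. The part of depth and of that limit in these profiles was not tested.

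**Figure D5:**
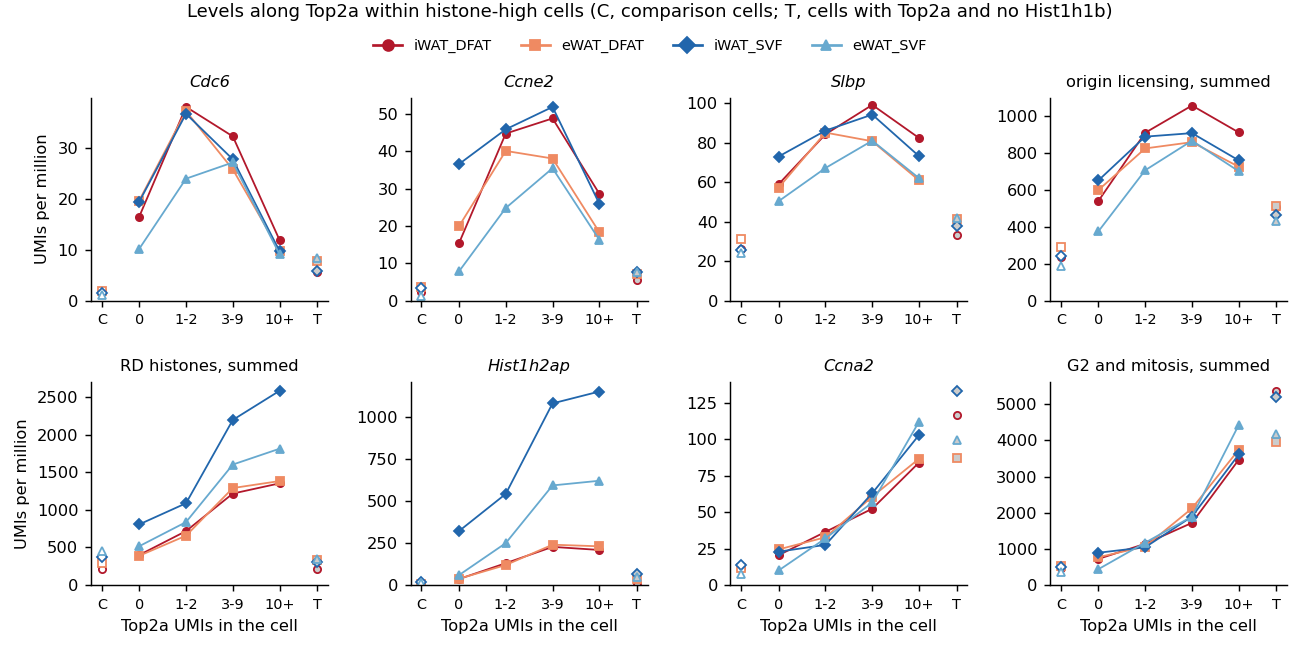
CPM of 5 genes and 3 summed lists in histone-high cells with 0, 1 to 2, 3 to 9 and 10 or more Top2a UMIs, with comparison cells (C) and cells with Top2a and no Hist1h1b (T) at the sides, for each library. Cdc6 is highest in the inner steps and lowest at 10 or more, in eWAT_SVF by little, whereas summed histones and Ccna2 are highest at 10 or more.

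The promoters of these genes share short sequence elements to different degrees. RefSeq promoters (GRCm38.p6) were matched for 62 of 67 replication-dependent histone genes, 316 of the 394 higher genes and 7974 of the 10056 compared. In the 250 bases before each start, both strands were searched for the CCAAT box (CCAAT), the TATA box (TATAAA), the octamer of H2B promoters (ATTTGCAT), the box of H1 promoters (AAACACA), the E2F site (TTTCCCGC, TTTGGCGC or TTTCGCGC) and the CHR of G2 genes (TTTGAA or TTCGAA). No one of these motifs contains another. CCAAT was in 82.3% of replication-dependent histone promoters, 57.9% of the higher genes, 36.6% of all compared and 34.5% of 27025 promoters. TATAAA was in 46.8%, 7.59%, 6.13% and 13.0% of the same groups. By histone family, CCAAT was in all matched H1, H2A and H2B promoters and in 80% of H3 promoters. Of H4 promoters it was in 3 of 12 (25%), a smaller share than in all promoters. The octamer was in 38.9% of H2A and 37.5% of H2B promoters against 1.61% of all promoters, and AAACACA was in 5 of 6 H1 promoters against 6.22% of all.

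The E2F letters were in 6 of 14 licensing, 4 of 12 S phase entry, 3 of 25 fork, 2 of 18 repair and 0 of 14 nucleotide synthesis promoters. They were also in 3 of 10 ribosome biogenesis promoters, a list with no gene called, and in 11.4% of the higher genes and 3.32% of all compared. The CHR letters were in 32.1% of G2 and mitosis promoters and in 12 of 16 H2B promoters, against 79 of 316 of the higher genes and 12.2% of all compared. The 150 bases before the start are shown for the gene that chose the cells, for an H2B gene, for the licensing gene and for the gene of the steps, 5′ to 3′ in the direction of the gene, with the motifs in capitals.
Hist1h1b promoter (chr13:21780626-21780775, minus strand): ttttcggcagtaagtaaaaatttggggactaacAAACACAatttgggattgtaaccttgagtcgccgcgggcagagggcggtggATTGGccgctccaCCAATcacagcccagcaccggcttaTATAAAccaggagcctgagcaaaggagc
Hist1h2bj promoter (chr13:22043048-22043197, plus strand): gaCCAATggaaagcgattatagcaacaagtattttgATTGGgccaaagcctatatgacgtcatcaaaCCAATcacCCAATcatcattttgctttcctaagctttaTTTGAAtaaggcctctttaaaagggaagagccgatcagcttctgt
Cdc6 promoter (chr11:98908001-98908150, plus strand): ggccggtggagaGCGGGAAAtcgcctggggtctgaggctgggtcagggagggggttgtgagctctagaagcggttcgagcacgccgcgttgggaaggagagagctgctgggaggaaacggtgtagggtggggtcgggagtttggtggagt
Top2a promoter (chr11:99024190-99024339, minus strand): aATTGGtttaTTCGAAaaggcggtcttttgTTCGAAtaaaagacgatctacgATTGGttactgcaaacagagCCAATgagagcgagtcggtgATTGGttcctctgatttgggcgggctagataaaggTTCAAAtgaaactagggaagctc
In Hist1h1b the H1 box lies 117, the paired CCAAT boxes 66 and 53 and the TATA box 28 bases before the start. Cdc6 has the E2F letters 138 bases before its start and no CCAAT in this window, and Top2a has CCAAT and CHR letters and none of E2F. A match is a description of the letters and not of a bound factor.

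Genes of cell cycle exit were split. Of 20 compared 3 were higher and none lower, with a median of 0.05 (-0.066 with comparison cells matched in depth), and the 3 were Cdkn2c, Cdkn2d and Rbl1. Cdkn2d, an inhibitor of the G1 kinases, had 36.8, 31.3, 59.0 and 53.6 CPM against 10.8, 8.21, 10.8 and 12.3 CPM. Cdkn1a, the p21 inhibitor, stood at 299, 436, 315 and 252 CPM against 266, 395, 295 and 233 CPM, for ratios of 0.10 to 0.17. Cdkn2b stood at -0.58, -0.50, -0.88 and -1.03, below the comparison cells in every library and past 2-fold in eWAT_SVF alone.

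The 10 genes called lower were Hist1h2bc, Slfn5, Tcp11l2, Ltc4s, Pi16, Ndufa4l2, Serpina3n, Sncg, Iigp1 and Gda. The count was 30 without eWAT_SVF and 4 with comparison cells matched in depth. These genes, Hist1h2bc and Pi16 aside, were named after their values were seen. Slfn5 stood at -2.44, -1.82, -2.25 and -1.86 and Tcp11l2 at -1.71, -1.79, -2.198 and -1.78. By the rule for abundant genes, the largest differences below the comparison cells after Hist1h2bc were Ypel3 at -1.23 to -0.86, Mxd4 at -1.33 to -0.84 and Kdm5b at -1.49 to -0.80. Mxd4, an antagonist of MYC, had 58.8, 37.5, 39.6 and 85.2 CPM against 130.2, 83.7, 99.6 and 152 CPM, and Kdm5b removes methyl groups from histone H3. Serpine2, Dcxr, Pdcd4, Serping1, Tspan17 and Mmp2 followed, each lower in all 4 libraries but short of 2-fold in at least 1. The matching rule for the other direction named, beside histones and genes given above, Cdca2, which works on chromosomes at mitotic exit, at 4.85, 4.51, 4.61 and 5.19.

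Collagen and matrix genes and markers of adipose stem and progenitor cells (ASPC) stayed under 2-fold in every library, Pi16 aside. Of all genes compared, 36.9% lay above the comparison cells in all 4 libraries and 30.1% below. For collagen and matrix genes 14 of 18 lay below in all 4 and none above, for ASPC markers 5 of 11 below and none above, and for the inflammatory list 7 of 12 below and none above. For contractile genes 6 of 13 lay above in all 4 and 1 below, but their median of 0.12 was -0.13 with comparison cells matched in depth, and for ribosome biogenesis 13 of 15 above and none below. The ASPC markers had a median of -0.14, with 1 of 11 lower, Pi16, a marker of early progenitors, at 9.499, 0.791, 0.199 and 0.638 CPM against 38.8, 1.67, 0.853 and 1.72 CPM. Pi16 reached the mean of 5 CPM only through iWAT_DFAT, chiefly its comparison cells, and was scarce in the other libraries. Pdgfra stood at 167, 89.9, 81.1 and 73.0 CPM against 296, 98.6, 79.7 and 82.4 CPM, and its lowest ratio was -0.82 in iWAT_DFAT. Collagen and matrix genes had none of 18 called and a median of -0.26, with Col3a1 at -0.93 to -0.31 and Dcn at -0.84 to -0.40. Of 13 contractile genes none was called, with Acta2, smooth muscle actin, at 0.38, 0.00, 0.04 and 0.03. The inflammatory list had none of 12 called in all 4 libraries and a median of -0.33, which was -0.15 with comparison cells matched in depth. In 1 to 3 libraries Saa3, Lcn2, Icam1 and C3 were more than 2-fold lower, and Saa3, an acute-phase protein gene, stood at 1526, 345, 0.243 and 56.0 CPM against 4691, 1162, 0.494 and 76.7 CPM. Ribosome biogenesis had none of 15 called and a median of 0.34, with Myc at -0.06, 0.20, 0.07 and 0.25.

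The summed levels of the contractile and inflammatory lists are given for each library. The 13 contractile genes summed to 5142, 14420, 22669 and 28780 CPM in histone-high cells, and the 12 inflammatory genes to 14045, 11016, 1073 and 980.0 CPM. In comparison cells the contractile sums were 4380, 14225, 22556 and 28783 CPM and the inflammatory sums 17398, 14380, 1056 and 1132 CPM. In both kinds of cells the inflammatory sums of the DFAT libraries lay above those of the SVF libraries, and the contractile sums below. A UMI of Pdgfra was in 94.2%, 86.2%, 80.4% and 78.3% of histone-high cells and in 92.7%, 71.1%, 66.8% and 69.5% of the shallower comparison cells. Thinned to 5000 UMIs the shares were 51.3%, 34.7%, 29.9% and 28.6% against 68.4%, 33.6%, 29.8% and 30.6%.

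Cells with 3 or more markers of another cell type were few among the histone-high cells. The most frequent were mesothelial markers in eWAT_SVF, in 8.46% of histone-high and 6.63% of comparison cells, and endothelial markers in the same library, in 3.37% and 2.15%. In eWAT_DFAT adipocyte markers were in 0.666% of histone-high cells and 3.50% of comparison cells, and endothelial markers in 0.888% and 4.18%. With 2 or more markers after thinning to 5000 UMIs, those shares were 7.25% and 6.30%, 2.87% and 2.12%, 0.444% and 4.11%, and 0.888% and 4.298%. The comparison cells of eWAT_DFAT thus held more adipocyte and endothelial markers than its histone-high cells, and the part of these cells in its ratios was not tested. Summed over the list of 7, adipocyte markers stood at 17.4, 17.8, 0.199 and 0.679 CPM in histone-high cells and 29.0, 191, 0.779 and 1.74 CPM in comparison cells. In iWAT_DFAT, Car3 and Cfd stood above comparison cells, at 0.94 and 0.43, and Adipoq, Cidec and Plin1 below. All of them lay below in eWAT_DFAT. Lep and Pck1 of the adipocyte list, and the T cell marker Cd3e, had no UMI in histone-high cells of any library. Lep and Cd3e had none in comparison cells either, and Pck1 had 24 there, all in eWAT_DFAT. Their absence was thus not particular to the histone-high cells. The 7 endothelial markers summed to 15.9 to 83.5 CPM in histone-high cells and 23.6 to 83.2 CPM in comparison cells, the 7 immune markers to 14.7 to 62.1 and 18.1 to 57.4 CPM, and the 7 mesothelial markers to 4.97 to 119 and 6.26 to 105 CPM. By library these sums went both ways. Over comparison cells, endothelial sums stood at 0.672, 0.286, 0.674 and 1.37 times, immune at 0.933, 0.812, 1.71 and 1.08 and mesothelial at 0.794, 1.09, 0.777 and 1.13. Several of these sums were mostly 1 gene in histone-high cells. Krt19 held 4.77 of 4.97 and 59.2 of 59.8 CPM of the mesothelial sums in iWAT_DFAT and iWAT_SVF. Of the immune sums, Csf1r held 17.4 of 19.4 CPM in iWAT_DFAT and 12.1 of 14.7 CPM in eWAT_DFAT. Lyz2 held 18.4 of 31.1 CPM in iWAT_SVF. The ratios in those libraries thus do not describe the cell types. The 7 pericyte markers summed to 8.27 to 37.9 CPM against 11.9 to 40.2 CPM, and the 6 Schwann markers to 1.56 to 12.7 against 1.81 to 30.7 CPM. The upper limit on genes removed 124, 116, 99 and 116 cells with 3 or more Hist1h1b UMIs, 54.4%, 60.7%, 51.3% and 62.7% of all cells over that limit.

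Between sources, a few genes had different ratios in the DFAT and the SVF libraries of both depots, and the difference was not tested. After Hist1h1c, the genes with a larger ratio in DFAT were Col8a1 at 0.81, 0.53, -0.14 and -0.10 and Cdkn2a, the p16 and p19ARF locus, at -0.16, 0.18, -0.79 and -0.62. Larger in SVF were Sorbs2 at -0.64, -0.37, 0.29 and 0.77, Pcsk5 at -1.75, -1.31, -0.92 and -0.34 and Nusap1 at 4.11, 3.96, 4.92 and 5.39. For Nusap1, a spindle protein, the histone-high cells had 43.5, 41.6, 54.8 and 55.9 CPM and the comparison cells 2.51, 2.67, 1.80 and 1.33 CPM, so both sides of the ratio differed between the libraries of the sources.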

How the data were processed

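Gene counts (UMIs per gene and barcode) were read from 4 raw matrices deposited by the authors, 1 library per condition, over 32285 genes. Per the study's methods, cells were detached with trypsin, stained with 7-AAD and sorted before 3′ capture, and reads were counted with introns on mm10. The file headers named Cell Ranger 7.1.0 for 3 libraries and Cell Ranger 4 for iWAT_SVF, and the submitters' processing notes named Cell Ranger 7.0.0, so the version and intron setting behind iWAT_SVF are uncertain. No normalisation had been applied to the deposited counts and no column was left unused.

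Barcodes with 5000 to 75000 UMIs, 200 to 7500 genes and under 10% mitochondrial UMIs were kept. Counts were summed per library and class of cells and scaled to a total of 1e+06 (CPM). Log2 ratios used a pseudocount of 0.5 UMI per sum, and 95% intervals were exact binomial and conditional binomial ones, which cover counting error only. Genes with a mean of at least 5 CPM over the 8 sums were compared, and a gene was called past the fold where it was 2-fold higher or lower in all 4 libraries. No p-value was computed, since the cells were chosen by the readout and no condition had a replicate. The members and lists were chosen with earlier results of these data known.

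Named genes were the markers, Top2a, list members and ranked genes. In each direction, 10 were ranked by the smallest log2 ratio over libraries. A further 3 in each direction were ranked by the difference between DFAT and SVF in the depot where it was smaller. Both rankings took genes at 20 CPM or more in the higher class of cells of all libraries. The comparison with Top2a cells, the classes of transcript ends and the motif search were added after values were seen. Doublets were not removed. Scrublet made 0, 0, 0 and 4 calls of its own, so removal of the highest scores was an alternative. Those scores held 10.8%, 9.55%, 10.1% and 8.18% of histone-high cells and 2.89%, 1.75%, 2.92% and 3.29% of comparison cells. Whether these histone-high barcodes were doublets was not tested. Other alternatives were the limits on UMIs, genes, Hist1h1b and CPM, the fold, free RNA subtraction, matching on depth, means over cells and leaving out each library. Transcripts were those of GENCODE M21 (GRCm38), which may be another release than the one used for counting. The summing and ratio steps were tested on simulated data. Scripts ran in Python 3.11.15 with scanpy 1.11.5 (Scrublet), pandas 2.3.3, scipy 1.17.1 and numpy 2.4.6. Some items are not reported here.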

Additional observations from a re-analysis of the deposited data

Results flagged for a closer look

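Of 312 genes given by list or rank, 3 had ratios of one sign in both DFAT libraries and of the other in both SVF libraries with all 4 counting intervals clear of 0. Col8a1, also a list member, and Sorbs2 had been ranked by the difference between DFAT and SVF, so their place here followed in part from that choice. The same count over all genes compared is not given. Col8a1, a short-chain collagen gene, stood at log2 0.81 and 0.53 in iWAT_DFAT and eWAT_DFAT and at -0.14 and -0.10 in iWAT_SVF and eWAT_SVF. Sorbs2, a gene of an actin-linked adaptor, stood at -0.64 and -0.37 and at 0.29 and 0.77. Tagln, a gene of smooth muscle actin binding, stood at 0.59 and 0.063 and at -0.033 and -0.032. Its SVF ratios were of the size of the median gene (0.01 to 0.04), and counting intervals leave out the spread between cells and cultures. A change of sign between sources is thus not shown for Tagln. The median of the contractile list, which holds it, itself changed sign with comparison cells matched in depth. The difference between the sources was not tested.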

How the results depend on the processing

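Each condition had 1 library, so precision is limited to counting error, and the levels of histone mRNAs depend on how much of them was captured on poly(A). Over the alternatives 315 values stayed within their spread and 48 moved. The count of genes higher was 662 at 1.5-fold and 171 at 20 CPM or more. The count lower was 78 at 1.5-fold, 34 where 3 of 4 libraries sufficed, 2 at 3-fold, 16 with 5 or more Hist1h1b UMIs, 4 with comparison cells matched in depth, 19 at 1 CPM, 4 at 20 CPM and 30 without eWAT_SVF. Leaving out each library gave 399 to 441 higher and 10 to 30 lower. The median log2 ratio of S phase entry genes was 2.06 with 5 or more Hist1h1b UMIs, 2.08 with 5% free RNA subtracted, 2.22 at 1 CPM, 1.74 at 20 CPM, 2.08 as a mean over cells and 1.96 to 2.05 without 1 library. For H2A genes it was 4.97 matched in depth, 5.39 with free RNA subtracted and 5.07 at 20 CPM. All replication-dependent histones had 2.90 at 1 CPM, and chromatin copying 1.63 at 20 CPM. With comparison cells matched in depth, contractile genes stood at -0.13, cycle exit at -0.066, inflammatory genes at -0.15, mesothelial markers at 0.40 and replication-independent histones at 0.79, so the first 2 lists changed sign. Mesothelial markers stood at -0.37 with 5 or more Hist1h1b UMIs, and replication-independent histones at 0.52 as a mean over cells and at 0.53 to 0.71 without 1 library. The cause of these moves was not tested.

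The share of histone-high cells in eWAT_DFAT was 26.0% from 500 UMIs upward, 32.9% with 2 or more and 22.3% with 5 or more Hist1h1b UMIs, 26.6% with the highest doublet scores removed and 25.4% thinned. In eWAT_SVF it was 19.2%, 25.3% and 15.6%, then 21.8% with no upper limit on genes and 19.7% thinned. In iWAT_DFAT it was 22.2% with 2 or more and 16.3% with 5 or more, 18.0% with doublet scores removed and 19.97% with no gene limit. In iWAT_SVF it was 17.7% from 500 UMIs, 21.7%, 15.7% and, thinned, 17.5%. The eWAT_DFAT share was the highest under each of the settings given for it. No paired analysis was run. Sources paired by depot would give 2 pairs and were not tested.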

Other observations

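Of the 394 genes higher in histone-high than in comparison cells, 244 belonged to none of the lists. Among them, named after their values were seen, were Neil3, a DNA glycosylase, Polq, a repair polymerase, Ticrr, which readies origins to fire, and Foxm1 and Mybl2, transcription factors of the G2 programme.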
